A study of Homo sapiens with 22 samples.

Results

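The clustered protocadherin genes were taken as all genes whose symbol names a member of the PCDHA, PCDHB, PCDHGA, PCDHGB or PCDHGC families, which gave 54 of the 60675 genes in the table. No expression value was used to choose them. There were 16 alpha members, 16 beta members and 22 gamma members, the last made up of 12 of subfamily A, 7 of subfamily B and 3 of the C type. All 54 were matched by identifier to GENCODE release 44, where PCDHA14 is a transcribed pseudogene. On GRCh38 they lie on the plus strand of chromosome 5, with the alpha genes between 140786136 and 141012347, the beta genes between 141051374 and 141249365 and the gamma genes between 141330514 and 141512977. The C-type members are PCDHAC1 and PCDHAC2 at the end of the alpha cluster and PCDHGC3, PCDHGC4 and PCDHGC5 at the end of the gamma cluster.

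Clustered protocadherins are cell adhesion proteins of the cadherin superfamily that bind the same isoform on a neighbouring cell, and they are best known for giving neurons a surface identity. Each alpha and gamma member has its own promoter and large variable exon, which is spliced to a short set of constant exons shared by its whole cluster, whereas beta members consist of a single large coding exon. Most of the promoters carry a conserved sequence element at which CTCF binds, and the cohesin ring, held by CTCF, brings a chosen promoter to a distant enhancer. KDAC8 (HDAC8) removes the acetyl group from the cohesin subunit SMC3 so that the ring can be reused, which is why these genes are a place to look when KDAC8 is inactive. KDAC6 (HDAC6) is mainly a cytoplasmic deacetylase of tubulin and other proteins and has 2 catalytic domains.

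The cells were HT1080, a human fibrosarcoma line, and the study asked how loss of activity in a single deacetylase domain changes transcription. Wild-type (WT) cells were compared with 3 lines edited at the chromosomal gene with Cas9, KDAC6H216A and KDAC6H611A, each with an alanine in place of a catalytic histidine in a different KDAC6 domain, and KDAC8H143A, with the same kind of change in KDAC8. WT cells were also treated for 2 days with Tubastatin A at 1 µM, an inhibitor directed at KDAC6, or with PCI-34051 at 5 µM, an inhibitor directed at KDAC8. There were 4 libraries of WT and of each line and 3 of each treatment, 22 in all, given in the methods as biological replicates and made from total RNA after removal of rRNA. The KDAC6H216A cells were a pool of 3 independently isolated lines. The methods describe no pool for KDAC6H611A and KDAC8H143A, which were grown from single colonies, so effects of the isolate and of the mutation cannot be told apart there. The KDAC8H143A line also carries an unintended insertion of a base in an intron.

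Promoters of some members on which the results turn are shown first, as 30 bases of the gene's strand from the RefSeq sequences of GRCh38.p14. Only promoters with the motif of their cluster, described below, are printed. PCDHGA11 had an entry but no CGCTGT in it, and the promoters of PCDHGB4, PCDHGC4 and PCDHB1 are not shown. The capitals mark the letters CGCT, the core that the conserved element of the 3 clusters has in common. Of the 54 members, 47 had an entry of 250 bases before and 50 bases after the annotated start, and PCDHA3, PCDHA13, PCDHA14, PCDHB6, PCDHB11, PCDHGA12 and PCDHGC5 had none.
PCDHA4 (chr5:140806975-140807004): ggtttggagccacatgatgtCGCTctttac
PCDHB2 (chr5:141094540-141094569): tcggaagagacgcggggtggCGCTgcagcc
PCDHB15 (chr5:141245310-141245339): gcaaagacaacgcatggtggCGCTgcaggc
PCDHGA1 (chr5:141330399-141330428): ctggttaggactgtgggcgcCGCTgttcac
PCDHGA2 (chr5:141338699-141338728): ttatttaggcctctgagcgtCGCTgttgac
PCDHGA3 (chr5:141343763-141343792): acggttaggcctcttagtgtCGCTgttgac
PCDHGB2 (chr5:141359917-141359946): ctgagaaaacctctgagcgtCGCTgttggt
PCDHGA5 (chr5:141364103-141364132): ctggttaggactctgagtgtCGCTgttgac
PCDHGB5 (chr5:141397859-141397888): ctagtgctgactctgggcgcCGCTgttggc
PCDHGC3 (chr5:141475876-141475905): ttggctgggactctgtgtgcCGCTgtcggc
Members of a cluster shared letters around the core, before it in the alpha and beta clusters and after it in the gamma cluster. CATGATGTCGCT was found in 8 of 13 alpha promoters, GGTGGCGCT in 13 of 14 beta promoters, and CGCTGT in 17 of 20 gamma promoters, searched on both strands of the whole 300-base window. The same letters were found in 0.0293%, 0.619% and 13.3% of the 27305 genes with a promoter entry. CGCTGT was also present in 7 of the 13 alpha promoters, where its first 4 letters can be the last 4 of CATGATGTCGCT. The motifs were chosen by reading these promoters, so their frequency among the members is a description. In the gene's direction, among motifs lying before the start, the core began a median of 51.5 bases before the start in the alpha cluster, 61.5 in the beta cluster and 58 in the gamma cluster.

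Total counts ran from 5248960 to 8998521 in the WT libraries, from 6837484 to 17170493 in the mutant lines and from 24315844 to 29862658 with an inhibitor, so low members are measured more finely in the treated cells. Mitochondrial rRNA took 20.8% to 23.9% of the counts in WT, under 0.03% in KDAC8H143A and in the treated cells, 0.195% in replicate 1 of KDAC6H216A and 0.173% in replicate 4 of KDAC6H611A, and these shares move with the groups. With these RNAs and small RNAs removed, 19 of 25 members tested were called in KDAC8H143A and 13 of 23 for PCI-34051. The counts were 12 of 23 for Tubastatin A and 3 of 22 in KDAC6H611A. Those fits called 9251 of 16028, 7790 of 14889, 8764 of 14864 and 1865 of 14825 genes, in that order. With these RNAs kept, 19, 14, 13 and 3 members were called. RSEM shares reads that match several transcripts among them, such as those of the constant exons of the alpha and gamma clusters. Of the values above 0, 76.0% in the gamma, 42.1% in the alpha and 38.6% in the beta cluster were not whole numbers, so members are not measured independently. Of the mesenchymal markers, all 8 were above 3 counts in some library of every group, whereas 5 of 6 epithelial markers were at 0 throughout WT.

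In WT cells the gamma cluster carried nearly all of the protocadherin transcripts. The gamma members summed to 162 to 176 CPM (counts scaled to library size, with TMM factors over all libraries), against 8.78 to 11.1 CPM for the alpha and 2.25 to 3.79 CPM for the beta members, so that gamma made up 92.7% ± 0.595 (SD, n = 4) of the whole. A single member led the gamma cluster, and another led the alpha cluster. PCDHGC3 (ENSG00000240184), a C-type gamma isoform expressed widely outside the nervous system, held 56.1% ± 2.77 of the gamma counts, and PCDHA4 (ENSG00000204967) held 90.1% ± 1.99 of the alpha counts. Per kilobase of the canonical transcript, PCDHGC3 stood at 20.2 ± 1.47 CPM, ahead of PCDHGB4 at 3.94 ± 0.335 and PCDHA4 at 1.72 ± 0.168, and the rest of the gamma members lay between 0.174 and 1.18. The means of PCDHGC3, PCDHGB4 and PCDHA4 lay further apart than their SDs on this scale, whereas PCDHGA6 at 1.18 ± 0.0674 and PCDHGA10 at 0.999 ± 0.226, next in order, did not. In each of the WT libraries 13 of 16 alpha members and 12 of 16 beta members had no more than 3 counts. PCDHAC1 and PCDHAC2, the C-type alpha isoforms, were at 0 in all 4 WT libraries and reached at most 0.163 CPM and 0.0968 CPM in any library.

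**Figure D1:**
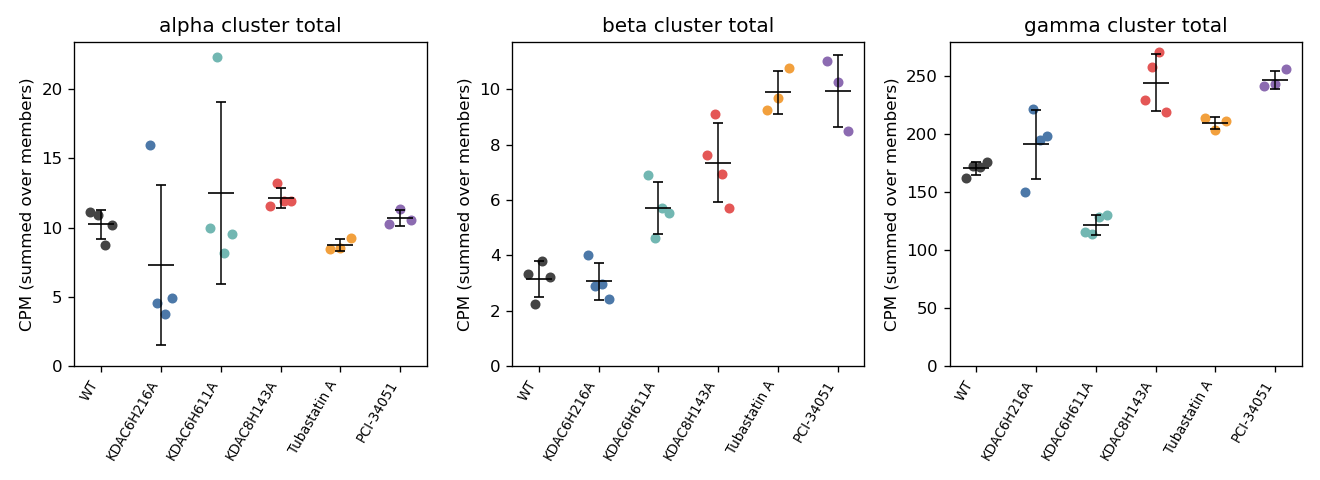
Summed CPM of the alpha, beta and gamma members in each library, by group, with the mean and SD as a bar. The gamma total lay between 219 and 272 CPM in the 4 KDAC8H143A libraries and between 162 and 176 CPM in WT, and the beta total was above every WT library in all libraries of KDAC8H143A and of both treatments.

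The gamma cluster total was 171 ± 5.94 CPM in WT (SD, n = 4). It was 245 ± 24.4 in KDAC8H143A, 247 ± 7.87 with PCI-34051 and 210 ± 5.29 with Tubastatin A (n = 3 for each treatment), against 192 ± 29.96 for KDAC6H216A and 122 ± 8.76 for KDAC6H611A. As these are bulk libraries, a change in the number of cells that use a gene and in its RNA per cell cannot be told apart. The libraries of KDAC8H143A and of both treatments all lay above those of WT, and those of KDAC6H611A all lay below. The alpha total ranged from 8.78 to 11.1 CPM in WT and overlapped with KDAC6H611A, Tubastatin A and PCI-34051. KDAC8H143A, at 11.6 to 13.2 CPM, lay just above WT. In KDAC6H216A the alpha total was 15.95 CPM in replicate 1, above WT, and 3.76 to 4.92 CPM in replicates 2 to 4, below WT. For the beta cluster the means were 3.15 ± 0.646 CPM in WT, 9.93 ± 1.31 with PCI-34051, 9.88 ± 0.779 with Tubastatin A and 7.34 ± 1.42 in KDAC8H143A, while KDAC6H611A stood at 5.70 ± 0.936 and KDAC6H216A at 3.07 ± 0.668. The beta sums rest on 16.07 to 30.02 counts in a WT library. No test was applied to the totals, which are sums over members.

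The make-up of the gamma cluster changed in KDAC8H143A cells. PCDHGC3 fell while most other gamma members rose, so that its share of gamma counts went from 53.0% to 59.8% in WT libraries to 17.9%, 27.0%, 27.4% and 16.1% in KDAC8H143A replicates 1 to 4. The remaining gamma members together rose from 69.0 to 77.7 CPM in WT to 184 to 197 CPM in KDAC8H143A. The effective number of gamma members, the inverse of the summed squared shares, went from 3.01 ± 0.274 to 11.9 ± 2.95, which describes a mixture spread over many isoforms in place of one that a single isoform dominated. PCDHGC3 was still the highest gamma member in all 4 KDAC8H143A libraries.

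**Figure D2:**
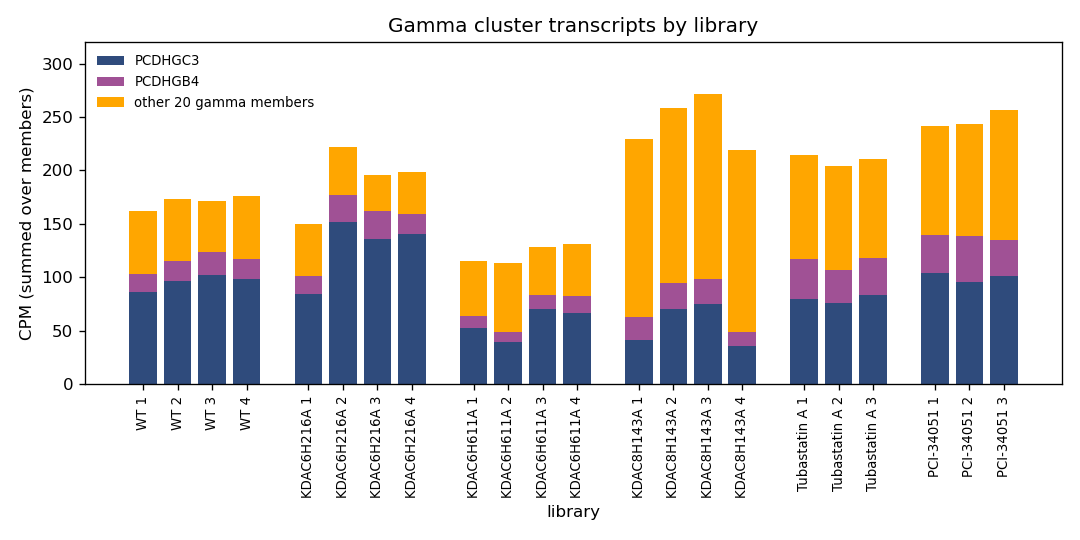
Stacked bars of PCDHGC3, PCDHGB4 and the other 20 gamma members in each library, in CPM. PCDHGC3 made up 53.0% to 59.8% of the bar in WT and 16.1% to 27.4% in KDAC8H143A, where the other members made up most of it.

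Of the 25 members that passed the filter on low counts in the comparison of KDAC8H143A with WT, 18 were higher and 1 was lower (edgeR quasi-likelihood test, adjusted p below 0.01), in a comparison that called 58.5% of all 16101 genes tested, 31.6% of them as higher and 26.9% as lower. All 22 gamma members were tested, and 17 of them were higher. The median log2 fold change of the gamma members was 1.5, against 0.08 for all genes tested. By subfamily, 9 of 12 A members, 6 of 7 B members and 2 of 3 C-type members were higher. Among the gamma members, 17 had every KDAC8H143A library above every WT library and PCDHGC3 had every library below. How many of all genes tested were separated in this way was not counted.

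Among the members that passed the filter, the 4 called with the largest rise in KDAC8H143A were PCDHGA11, PCDHGB5, PCDHGA5 and PCDHGA12. PCDHGA11 and PCDHGB5 had 2 to 17.4 and 4.7 to 11.65 counts in a WT library. Both passed the filter through KDAC8H143A, so no fold is given for them. PCDHGA11 stood at 0.414, 1.12, 1.01 and 2.52 CPM in WT and at 10.5, 9.18, 10.5 and 8.21 CPM in KDAC8H143A. The ranges were far apart, and the WT values themselves spread over a wide range at these low counts. PCDHGB5, a B member in the middle of the cluster, went from 1.74, 1.45, 1.20 and 0.68 CPM to 7.51, 8.07, 8.41 and 9.29 CPM. PCDHGA5 stood at 1.49, 1.36, 1.39 and 3.87 CPM in WT and at 10.9, 12.1, 12.7 and 10.3 CPM in KDAC8H143A. Its log2 fold change was 2.54 ± 0.29 (SE). The highest WT library of PCDHGA5, replicate 4, lay apart from the other 3 but below all KDAC8H143A libraries. PCDHGA12, the last of the A members, went from 2.48, 2.25, 1.51 and 2.75 CPM to 11.6, 7.28, 8.47 and 12.1 CPM (log2 fold change 2.19 ± 0.26, adjusted p = 2.03e-05, edgeR).

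The gamma members that did not pass the threshold in KDAC8H143A were the 3 at the start of the cluster and PCDHGB4. PCDHGA1 stood at 1.24 to 2.33 CPM in WT and 0.724 to 1.66 CPM in KDAC8H143A, with a log2 fold change of -0.42 ± 0.34. The log2 fold change was 0.55 ± 0.27 for PCDHGA2 (adjusted p = 0.0844, edgeR). PCDHGA3 (adjusted p = 0.0231, edgeR) had 2 to 8 counts in a WT library. It passed the filter through KDAC8H143A, so no fold is given. PCDHGB4 (ENSG00000253953), second to PCDHGC3 in all 4 WT libraries, had 16.89, 18.47, 20.76 and 18.91 CPM in WT and 21.6, 24.8, 24.3 and 13.8 CPM in KDAC8H143A. Its groups overlapped, with a log2 fold change of 0.22 ± 0.17. Along the 19 A and B members in genome order, Spearman's rho between position and log2 fold change was 0.493, a description over members that share libraries and constant exons. The median log2 fold change was 1.52 for the first 5 of them and 2.13 for the last 5.

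**Figure D3:**
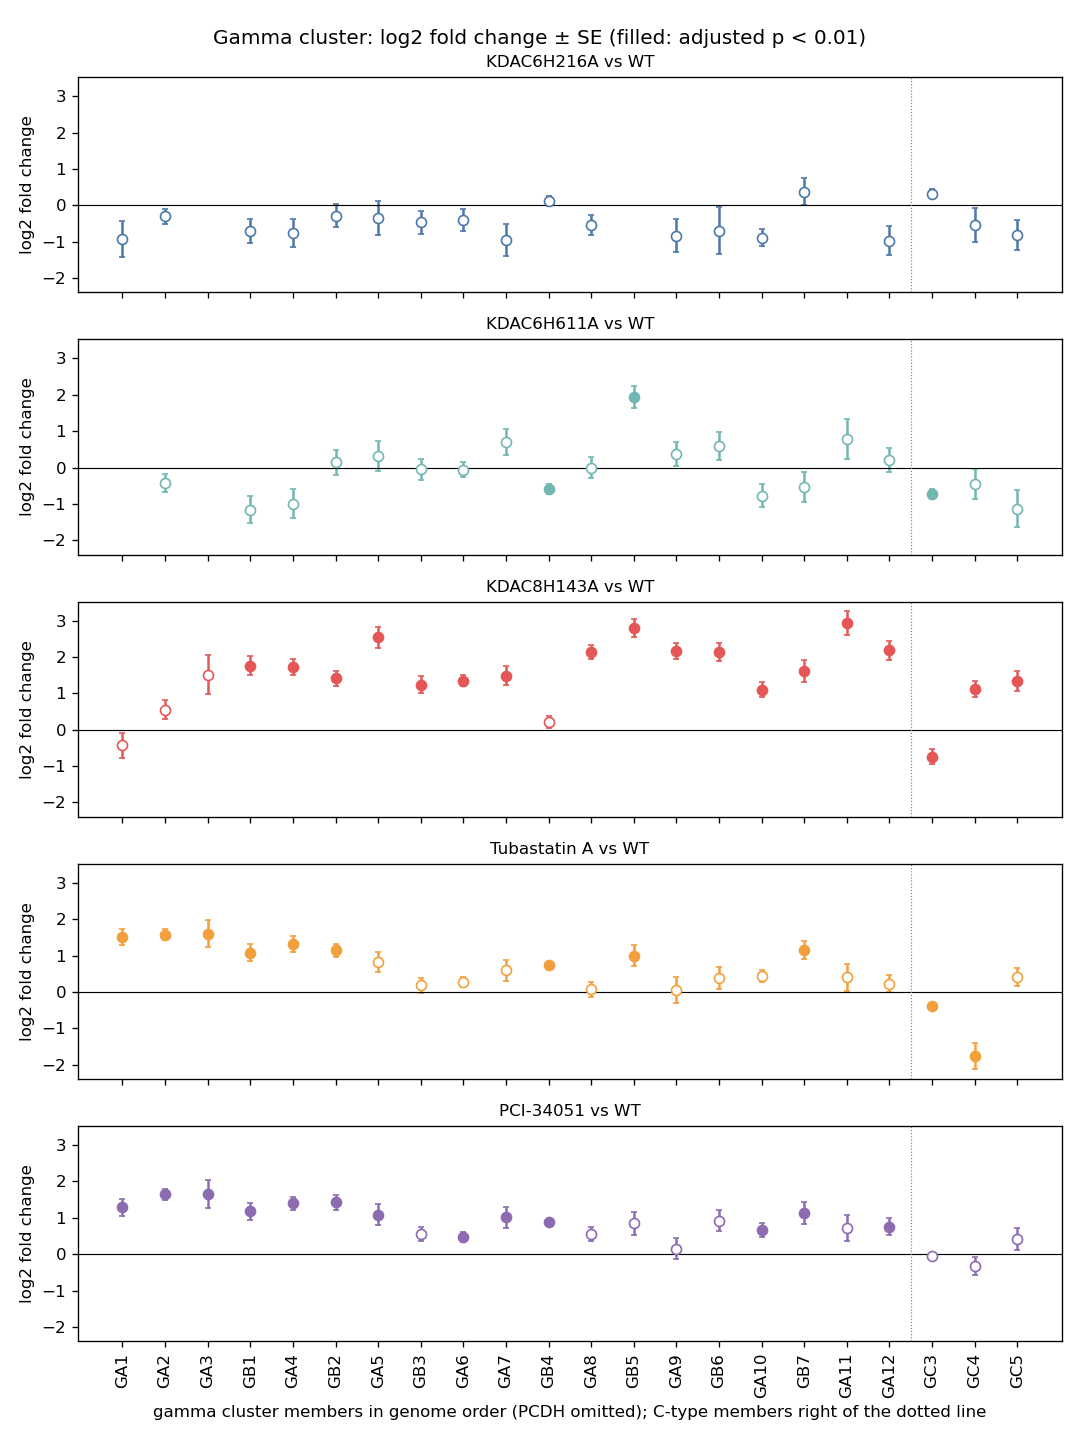
Log2 fold change against WT with its SE for each gamma member tested, in genome order, for the 3 lines and both treatments, filled where the adjusted p was below 0.01. In KDAC8H143A all members from PCDHGB1 to PCDHGA12 other than PCDHGB4 were filled and above 0, whereas with either inhibitor the 4 highest values were among the first 6 members, from PCDHGA1 to PCDHGB2.

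The C-type gamma genes did not move together in KDAC8H143A. PCDHGC3 had 86.0, 96.9, 102.5 and 98.3 CPM in WT and 41.1, 69.9, 74.5 and 35.4 CPM in KDAC8H143A, a log2 fold change of -0.75 ± 0.21 (adjusted p = 0.00637, edgeR). All 4 mutant libraries were below WT, but they fell into a lower pair and a higher pair, and the call was lost in 5 of the 8 fits that left out 1 library and with scaling to the total count (log2 fold change -0.44, adjusted p = 0.119, edgeR). PCDHGC4 rose from 3.10, 4.04, 4.19 and 6.63 CPM to 9.21, 7.97, 9.75 and 11.2 CPM (log2 fold change 1.12 ± 0.22, adjusted p = 0.000828, edgeR). PCDHGC5 went from 5.64, 3.87, 2.27 and 2.61 CPM to 7.78, 7.31, 11.1 and 8.16 CPM (log2 fold change 1.35 ± 0.27). No library of PCDHGC4 or PCDHGC5 in KDAC8H143A overlapped with WT.

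The GC content of the canonical gamma transcripts was 53.9% to 56.6%, above the median of 48.5% for the genes tested. With a smooth correction for GC content and length, 12 gamma members were higher and PCDHGC3 was lower, in a fit that called 48.8% of all genes tested, 22% as higher and 26.7% as lower, and the median gamma log2 fold change was 0.93. The calls for PCDHGB3, PCDHGA7, PCDHGA10, PCDHGC4 and PCDHGC5 were lost, and PCDHGB4 moved to -0.33. PCDHGC3, with a GC content of 56.5%, moved further down, to -1.38.

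The alpha and beta clusters were mostly below the filter in KDAC8H143A. PCDHA4 had 9.87, 9.66, 7.90 and 9.50 CPM in WT and 8.51, 10.5, 8.72 and 5.78 CPM in KDAC8H143A, overlapping groups with a log2 fold change of -0.08 ± 0.19. PCDHB15, the last gene of the beta cluster, was called higher, with 0.414, 0.250, 0.253 and 0.777 CPM in WT and 1.63, 2.03, 1.57 and 1.23 CPM in KDAC8H143A. It had at most 5.37 counts in a WT library and passed the filter through KDAC8H143A, so no fold is given. PCDHB1, the first beta gene and the most abundant one over all libraries, stood at 2.08, 1.01, 1.14 and 1.12 CPM in WT and at 1.13, 0.366, 0.783 and 0.331 CPM in KDAC8H143A, and did not pass the threshold (log2 fold change -0.94 ± 0.46, adjusted p = 0.0867, edgeR).

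**Figure D4:**
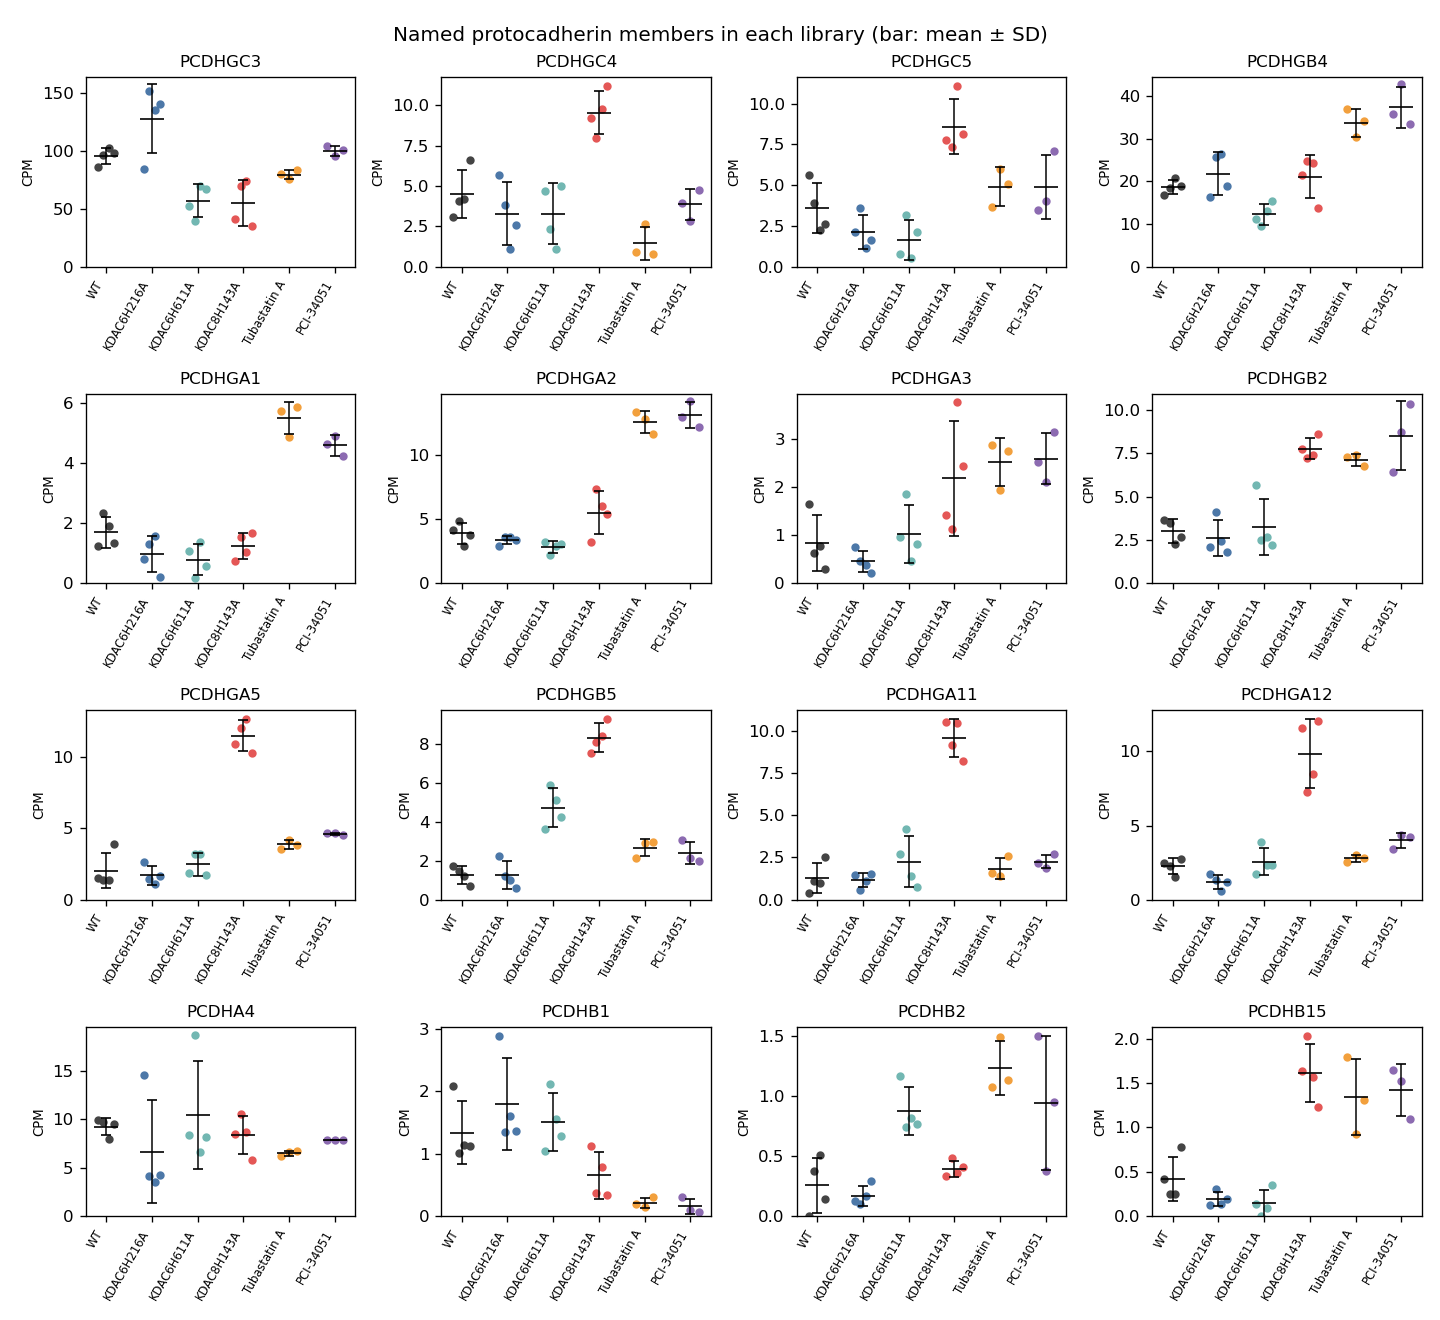
CPM of 16 named members in each library, by group, with the mean and SD as a bar. PCDHGA11, PCDHGB5, PCDHGA5 and PCDHGA12 were high in the KDAC8H143A libraries, PCDHGA1 and PCDHGA2 were high in the treated libraries, and PCDHGC4 was lowest with Tubastatin A, at 0.798 to 2.64 CPM.

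The inhibitors were applied to WT cells at different concentrations, so their values stand side by side without a test between them, and both were compared with the same 4 WT libraries. With Tubastatin A, 10 of 24 members tested were higher and 3 lower, where 57.9% of all genes tested were called, 29.3% as higher and 28.6% as lower. With PCI-34051, 14 of 24 were higher, where 51.1% of all genes tested were called, 25.5% as higher and 25.6% as lower. Of the 24, 19 had an unadjusted p below 0.05, a share that was not counted over all genes. DESeq2, run without the filter on low counts, called 14 of 54 members higher and 1 lower. It called 3794 of 32409 genes as higher and 3527 as lower. Scaling to the total count changed the split to 15 higher and 1 lower with Tubastatin A, where 64% of all genes tested were called, 51.9% as higher and 12.1% as lower, and to 20 higher with PCI-34051, where 61.1% were called, 51.4% as higher and 9.62% as lower. In KDAC8H143A it gave 19 higher, where 55.7% were called, 40.3% as higher and 15.5% as lower. All 22 gamma members were tested in both. The median gamma log2 fold change was 0.52 with Tubastatin A and 0.87 with PCI-34051, against medians of -0.003 and -0.007 for all genes tested.

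Within the gamma cluster, the members that rose most with either inhibitor lay near its start. PCDHGA2 had 4.14, 4.81, 2.86 and 3.77 CPM in WT, 13.3, 12.8 and 11.6 CPM with Tubastatin A and 12.9, 14.2 and 12.2 CPM with PCI-34051. These were log2 fold changes of 1.58 ± 0.15 (adjusted p = 2.10e-08, edgeR) and 1.65 ± 0.15 (adjusted p = 6.49e-08, edgeR). Neither treated group came near the WT range. PCDHGA1, the first gene of the cluster, had 1.24, 2.33, 1.89 and 1.32 CPM in WT, 5.73, 4.88 and 5.84 CPM with Tubastatin A and 4.65, 4.90 and 4.21 CPM with PCI-34051, log2 fold changes of 1.52 ± 0.22 and 1.29 ± 0.23. PCDHGA3 stood at 1.66, 0.624, 0.780 and 0.290 CPM in WT. It was called higher at 2.88, 1.95 and 2.75 CPM with Tubastatin A and 2.52, 2.10 and 3.16 CPM with PCI-34051. The treated libraries of PCDHGA1 and PCDHGA3 were all above the WT libraries, but PCDHGA3 had only 2 to 8 counts in a WT library. PCDHGA3 passed the filter through the treated cells, so no fold is given for it. PCDHGB2, a B member near the start of the cluster, went from 3.66, 3.50, 2.24 and 2.67 CPM in WT to 7.26, 7.39 and 6.75 CPM with Tubastatin A and 6.41, 8.74 and 10.4 CPM with PCI-34051 (log2 fold changes 1.15 ± 0.18 and 1.42 ± 0.22). PCDHGB4 also rose, from 16.9 to 20.8 CPM in WT to 30.4 to 37.0 CPM and 33.6 to 42.8 CPM, log2 fold changes of 0.73 ± 0.08 and 0.89 ± 0.09.

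Spearman's rho between genome order and log2 fold change over the 19 A and B members was -0.630 with Tubastatin A and -0.640 with PCI-34051, a description for members that share the WT libraries. The medians of the first 5 members were 1.52 and 1.40, and those of the last 5 were 0.40 and 0.75. Of the 4 members described above for KDAC8H143A, PCDHGA5 and PCDHGA12 were at 0.82 and 0.23 on the log2 scale with Tubastatin A and not called. With PCI-34051 they were at 1.09 and 0.75, where both were called (adjusted p = 0.00270 and 0.00994, edgeR). PCDHGB5 was called higher with Tubastatin A only, and PCDHGA11 with neither inhibitor. PCDHGB5 and PCDHGA11 passed the filter through the treated cells, as did PCDHGA3, so no fold is given. Whether the order differed between KDAC8H143A and the treatments was not tested, and the rho values with the GC correction were 0.465, -0.630 and -0.640 for KDAC8H143A, Tubastatin A and PCI-34051.

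Among the C-type genes, PCDHGC4 fell with Tubastatin A, from 3.10 to 6.63 CPM in WT to 0.895, 2.64 and 0.798 CPM, a log2 fold change of -1.76 ± 0.36 (adjusted p = 0.000273, edgeR). With PCI-34051 it stood at 3.96, 2.85 and 4.78 CPM, inside the range of WT or just below it, with a log2 fold change of -0.33 ± 0.24. PCDHGC3 had 79.7, 75.9 and 83.5 CPM with Tubastatin A, below all WT libraries, with a log2 fold change of -0.39 ± 0.05 (adjusted p = 1.58e-06, edgeR), but of -0.03 when libraries were scaled to the total count, a scaling in which the median of all genes was 0.35, and its call was also lost in a fit of all 6 groups (-0.27, adjusted p = 0.355, edgeR). Its level with PCI-34051 was 104, 95.4 and 101 CPM (log2 fold change -0.04 ± 0.05, and 0.35 with scaling to the total count, where the median of all genes was 0.38). PCDHGC5 was at 3.66 to 5.99 CPM and 3.47 to 7.11 CPM, overlapping with WT. The share of PCDHGC3 among gamma counts was 38.0% ± 1.34 with Tubastatin A and 40.6% ± 2.11 with PCI-34051, below the 53.0% to 59.8% of the WT libraries.

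Outside the gamma cluster, PCDHA4 fell with Tubastatin A to 6.17, 6.57 and 6.68 CPM, below all WT libraries, a log2 fold change of -0.62 ± 0.13 (adjusted p = 0.000307, edgeR), and the call was lost with scaling to the total count (-0.27, adjusted p = 0.0648, edgeR) and in a fit of all 6 groups (-0.51, adjusted p = 0.272, edgeR). With PCI-34051 it was at 7.88, 7.86 and 7.85 CPM, a log2 fold change of -0.32 ± 0.13 (adjusted p = 0.0362, edgeR). Only 1 beta member passed the filter in each treatment. PCDHB2 had 0, 0.374, 0.505 and 0.143 CPM in WT and 1.08, 1.49 and 1.13 CPM with Tubastatin A, where it was called higher. It stood at 1.499, 0.380 and 0.950 CPM with PCI-34051, where it was not tested. With at most 4 counts in a WT library, PCDHB2 passed the filter through the treated cells, so no fold is given. PCDHB15 was called higher with PCI-34051, at 1.65, 1.53 and 1.09 CPM, a call kept in 4 of the 7 fits that left out 1 library. It was at 1.79, 0.928 and 1.31 CPM with Tubastatin A, where it was not tested. With at most 5.37 counts in a WT library, PCDHB15 also passed the filter through the treated cells, so no fold is given.

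Because a member enters these fits mainly through the group in which it is high, the beta cluster was also examined without the filter, with all 16 beta members tested. In that fit 10 beta members were higher and 1 lower with Tubastatin A, where 30% of all genes tested were called, 17.4% higher and 12.6% lower. With PCI-34051, 7 were higher and 1 lower, where 27% were called, 15.7% higher and 11.3% lower. In KDAC8H143A 4 beta members were higher, where 30.8% of all genes were called, 17.5% higher and 13.3% lower. The lower member was PCDHB1 in both treatments. It stood at 0.198, 0.141 and 0.299 CPM with Tubastatin A and 0.298, 0.0955 and 0.0705 CPM with PCI-34051, below its WT range of 1.01 to 2.08 CPM, with log2 fold changes of -2.63 ± 0.54 (adjusted p = 5.09e-06, edgeR) and -3.05 ± 0.61 (adjusted p = 4.15e-06, edgeR). PCDHB1 thus moved against the members called higher. By the mean alone, 15 of 16 beta members were above WT with either inhibitor, a share that was not counted over all genes. Of the 16, 12 had no more than 3 counts in each WT library. PCDHB13, PCDHB10, PCDHB14, PCDHB15 and PCDHB16 were among those higher with both inhibitors in this fit. In KDAC6H611A PCDHB16 was called higher in this fit (adjusted p = 0.00923, edgeR), with 1.299, 0.336, 0.272 and 0.622 CPM against 0 in 3 WT libraries and 0.158 CPM in the other. PCDHB13 had at most 0.126 CPM in WT, 0.831 to 1.301 CPM with Tubastatin A and 0.879 to 1.13 CPM with PCI-34051.

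The same fit tested all 16 alpha members. It called 1 higher in KDAC8H143A, 2 higher with PCI-34051, and 1 higher and 1 lower with Tubastatin A. Of all genes tested, 17.5%, 15.7% and 17.4% were called higher, in that order. Alpha members were thus not called higher more often than all genes. PCDHA6 was at 0 in all 4 WT libraries and had 0.417, 0.581, 0.214 and 0.980 CPM in KDAC8H143A and 0.640, 0.467 and 0.423 CPM with PCI-34051, and was called higher in both (adjusted p = 0.000706 and 0.000177, edgeR). These values rest on 3 to 12 counts in a KDAC8H143A library. PCDHA1 was called higher with both inhibitors, at 0 to 0.207 CPM in WT, 0.3515 to 0.762 CPM with Tubastatin A and 0.348 to 1.21 CPM with PCI-34051.

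**Figure D5:**
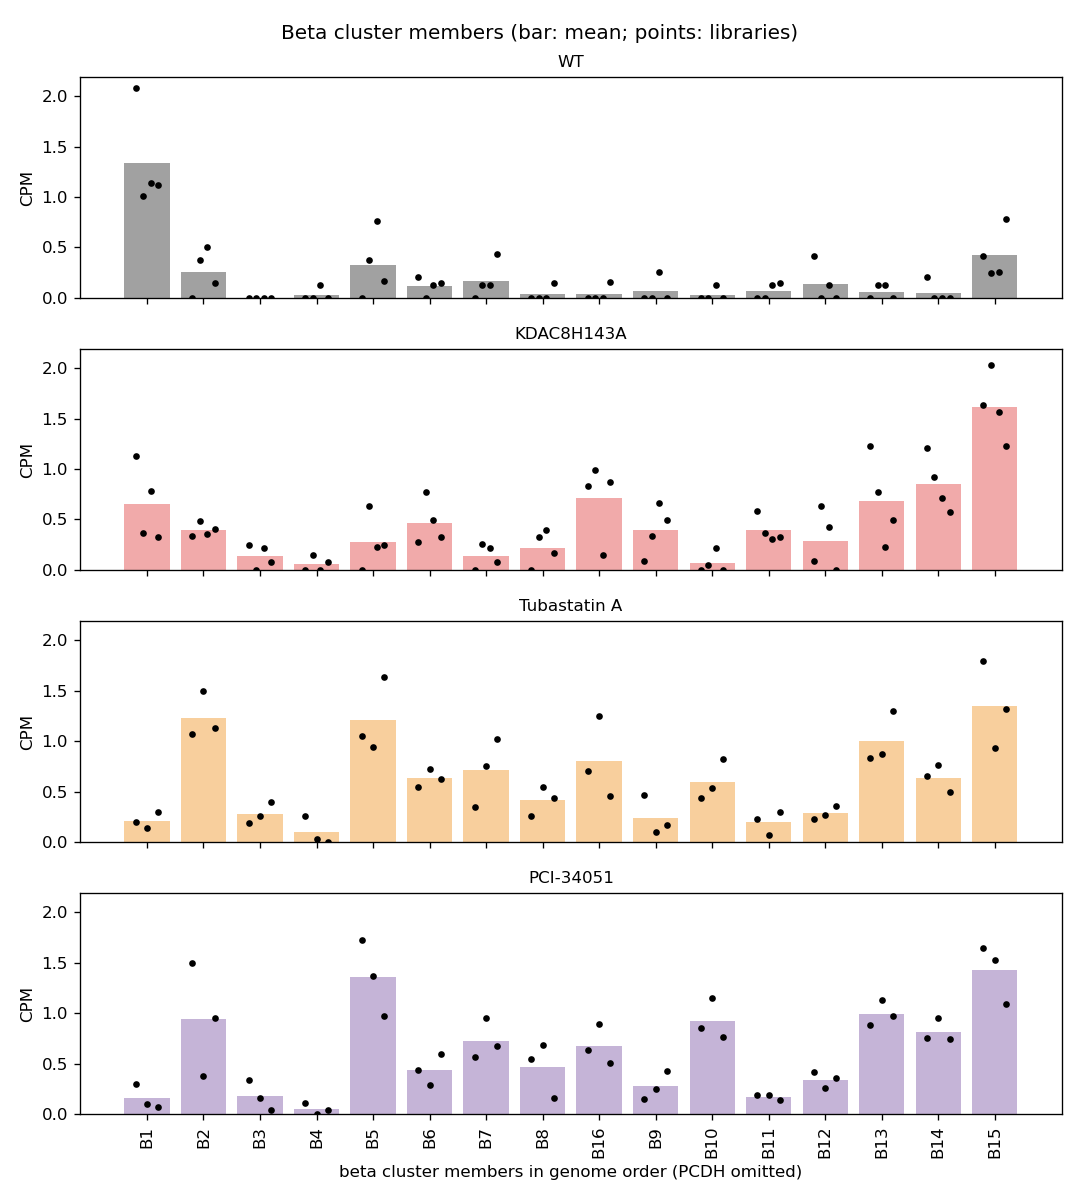
CPM of the 16 beta members in genome order in WT, KDAC8H143A and both treatments, with the mean as a bar and libraries as points. PCDHB1 was the highest member in WT, at 1.01 to 2.08 CPM, and fell to at most 0.299 CPM with either inhibitor, while the other 15 members had a higher mean than in WT.

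In the KDAC6 lines members were called about as often as all genes tested. KDAC6H611A differed from WT in 3 of 22 members tested, where 12.3% of all genes tested were called, 6.08% as higher and 6.24% as lower. PCDHGB5 was called higher, at 3.60, 5.89, 5.14 and 4.24 CPM, above all WT libraries. It had 4.7 to 11.65 counts in a WT library and passed the filter through KDAC6H611A, so no fold is given. PCDHGC3 fell to 52.9, 39.1, 69.9 and 66.8 CPM (log2 fold change -0.72 ± 0.14, adjusted p = 0.00232, edgeR) and PCDHGB4 to 11.3, 9.44, 13.0 and 15.4 CPM (log2 fold change -0.59 ± 0.14, adjusted p = 0.00941, edgeR). All libraries of both lay below WT, but PCDHGC3 lost its call without WT replicate 3 or KDAC6H611A replicate 1. The call for PCDHGC3 was also lost with scaling to the total count (-0.67, adjusted p = 0.0692, edgeR) or all 6 groups in 1 fit (-0.74, adjusted p = 0.0137, edgeR). PCDHGB4 lost its call in 6 of the 8 fits that left out 1 library. The share of PCDHGC3 among gamma counts was 46.4% ± 8.78, with replicate 2 at 34.4%. PCDHA4 in the same replicate reached 18.7 CPM, against 6.62 to 8.35 CPM in the other 3.

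In KDAC6H216A 0 of 21 members tested were called by edgeR, where 0.834% of all genes tested were called, 0.214% as higher and 0.621% as lower. DESeq2 called 0 of 49 members, where it called 293 of 30912 genes. By edgeR 3 members had an unadjusted p below 0.05, a share that was not counted over all genes. Replicate 1 of this line stood apart from the others. PCDHA4 had 14.6 CPM in it against 4.13, 3.57 and 4.26 CPM in replicates 2 to 4, and PCDHGC3 84.7 CPM against 151.5, 135.5 and 140.6 CPM. Without that library 7 of 21 members were called, 6 lower and 1 higher, where 26% of all genes tested were called, 12.2% as higher and 13.8% as lower. The log2 fold change of PCDHA4 was then -1.34 ± 0.17 (adjusted p = 6.25e-06, edgeR), that of PCDHGB6 -1.81 ± 0.39 and that of PCDHGA9 -1.38 ± 0.36, and PCDHGC3 was the one that rose, by 0.43 ± 0.06 (adjusted p = 1.98e-05, edgeR). The share of PCDHGC3 among gamma counts was 56.4% in replicate 1 and 68.2% to 70.9% in the other 3. Beside these values, HDAC6 itself, the gene that was edited, was lower in KDAC6H216A (log2 fold change -1.25 ± 0.18, adjusted p = 0.00540, edgeR), with 5.86 to 7.46 CPM in all 4 libraries, against 9.72 to 17.0 CPM in WT.

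The lines were also compared directly, without the WT libraries. Between KDAC8H143A and KDAC6H611A, 18 of 26 members tested were higher in KDAC8H143A, where 45.2% of all genes tested were called, 24.3% as higher and 20.9% as lower. Of the 22 gamma members 17 were higher, with a median log2 fold change of 1.57, and PCDHB15 was also called (adjusted p = 0.000270, edgeR). PCDHB15 had at most 3 counts in each KDAC6H611A library and passed the filter through KDAC8H143A, so no fold is given. PCDHGB5, which was raised over WT in both lines, differed between them by 0.86 ± 0.22 (adjusted p = 0.00459, edgeR), a call that was lost with the GC correction (0.40, adjusted p = 0.119, edgeR) and in 4 of 8 fits that left out 1 library. Between the 2 KDAC6 lines 2 of 22 members were called, where 9.93% of all genes tested were, 5.31% as higher and 4.61% as lower. PCDHGC3 was higher in KDAC6H216A by 1.07 ± 0.18 (adjusted p = 0.00265, edgeR). PCDHGB5 was called lower there, at 0.597 to 2.26 CPM against 3.60 to 5.89 CPM in KDAC6H611A. It passed the filter through KDAC6H611A, so no fold is given. Leaving out 1 library ended the call for PCDHGC3 in 3 of 8 fits and for PCDHGB5 in 7 of 8.

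Genes of the cohesin machinery were examined in the same libraries. In KDAC8H143A, 8 of the 15 genes of cohesin, its regulators and CTCF were lower and 1 was higher, with a median log2 fold change of -0.44 against 0.08 for all genes, of which 26.9% were lower and 31.6% higher. They included ESCO2, an acetyltransferase of SMC3, at -1.94 ± 0.16, the kleisin subunit RAD21 at -1.40 ± 0.12, STAG2 at -1.07 ± 0.11 and SMC3 itself at -0.97 ± 0.09, and MAU2, a part of the cohesin loader, was the one that rose, by 0.80 ± 0.10. CTCF stood at 54.2 to 63.3 CPM in WT and 40.8 to 53.7 CPM in KDAC8H143A, with a log2 fold change of -0.29 ± 0.10 (adjusted p = 0.0271, edgeR). HDAC8 showed a log2 fold change of 0.03 ± 0.13. With each inhibitor 5 of the 15 were lower and 1 higher, a smaller share than the 57.9% (Tubastatin A) and 51.1% (PCI-34051) of all genes called, with CDCA5, which protects cohesin on replicated DNA, at -1.06 ± 0.07 with Tubastatin A and -1.16 ± 0.08 with PCI-34051. SMC3 was at -0.54 and -0.68 and CTCF at -0.46 and -0.48, all called. In KDAC6H611A 2 of the 15, ESCO2 (-0.75) and SMC3 (-0.49), were lower, where 6.24% of all genes tested were.

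Of the 10 genes that silence the clusters, 3 were higher and 4 lower in KDAC8H143A, where 58.5% of all genes were called. DNMT3A, a DNA methyltransferase, rose by 1.55 ± 0.15 on the log2 scale, and SMCHD1, a chromatin protein that represses the clusters, was at -0.68 ± 0.13. In KDAC6H611A SMCHD1 was at -1.17 ± 0.09 (adjusted p = 2.18e-06, edgeR). With the inhibitors 7 of 10 were lower and 1 higher (Tubastatin A) and 5 of 10 were lower (PCI-34051), against 28.6% and 25.6% of all genes lower, including DNMT1 and DNMT3B, the latter at -0.62 ± 0.14 and -0.73 ± 0.14. SMCHD1 had -0.34 in both.

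Of the 11 signalling partners, which act downstream of protocadherins or cut them, 6 were lower and 1 higher in KDAC8H143A, where 26.9% of all genes were lower and 31.6% higher. With Tubastatin A 8 and with PCI-34051 9 were higher and 1 lower in each, where 29.3% and 25.5% of all genes were higher. PTK2B, a kinase that binds the constant domains, rose by 1.64 ± 0.20 in KDAC8H143A and by 0.88 ± 0.20 with PCI-34051. ADAM10, the protease that sheds the ectodomains, was at 114 to 132 CPM in WT, at 40.7 to 72.9 CPM in KDAC8H143A and at 194 to 215 CPM in the treated cells. In KDAC6H611A 2 of the 11 were lower, where 6.24% of all genes tested were. They were ABI2 (-0.81) and NCKAP1 (-0.70), both of the WAVE actin complex.

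Non-clustered protocadherins lie outside these loci and lack the array of alternative promoters. With Tubastatin A 4 and with PCI-34051 3 of the 5 tested were higher, where 29.3% and 25.5% of all genes tested were. The furthest was PCDH7, at 2.45 ± 0.30 and 2.72 ± 0.30, and it was also higher in KDAC6H611A (1.91 ± 0.37). PCDH7 was low in WT and was not tested between KDAC8H143A and WT, so it entered these fits through the group in which it was high. PCDH7 stood at 0.207 to 0.884 CPM in WT, 3.42 to 4.76 CPM with Tubastatin A and 3.84 to 5.43 CPM with PCI-34051. In KDAC8H143A the 3 tested, PCDH1, PCDH9 and PCDH12, had log2 fold changes of -0.09 ± 0.22, -0.95 ± 0.33 and 0.39 ± 0.34, which did not pass the threshold.

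The genes that flank the clusters on 5q31 were examined as neighbours. In KDAC8H143A 8 of 20 tested were higher and 3 lower, with a median log2 fold change of 0.25, against 31.6% and 26.9% of all genes. DND1, which encodes an RNA-binding protein, rose by 3.42 ± 0.34, from 0.644 to 2.18 CPM in WT to 8.73 to 16.6 CPM. DND1 was low in WT and passed the filter through KDAC8H143A, the group in which it was high. APBB3 rose by 2.22 ± 0.20, while TAF7, an intronless gene between the beta and gamma clusters, was at -0.91 ± 0.09. With Tubastatin A 6 of the 20 were lower and with PCI-34051 3, near or below the 28.6% and 25.6% of all genes, the furthest being APBB3 at -0.38 with Tubastatin A and IK at -0.35 with PCI-34051. In KDAC6H611A 1 of 19, ARAP3, was called, at 0.49 ± 0.10, where 12.3% of all genes tested were called. Pseudogenes within the gamma cluster were not members by the rule, but PCDHGB9P rose by 2.01 ± 0.38 on the log2 scale in KDAC8H143A (adjusted p = 0.000548, edgeR), the group through which it passed the filter, and PCDHGB8P was at 1.22 ± 0.39 on the same scale (adjusted p = 0.0144, edgeR).

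Markers of other cell types were set beside these changes. The neuronal markers summed to 21.3 to 23.6 CPM over 6 genes in WT, 25.2 to 33.9 CPM in KDAC8H143A, 21.7 to 23.8 CPM with Tubastatin A and 17.69 to 18.53 CPM with PCI-34051. In KDAC8H143A 2 of 4 tested were higher, where 31.6% of all genes tested were. The mesenchymal markers summed to 5790 to 6666 CPM in WT, 3426 to 4509 CPM in KDAC8H143A and 9477 to 10820 CPM in the treated cells. In KDAC8H143A 4 of 7 tested were lower and 1 higher, where 26.9% of all genes tested were lower and 31.6% higher. In KDAC6H611A the mesenchymal markers summed to 3313 to 5450 CPM, below all WT libraries, and 3 of 6 tested were lower, where 6.24% of all genes tested were. The epithelial markers summed to 2.90 to 6.37 CPM in WT and 6.27 to 9.72 CPM in KDAC8H143A, where the 1 tested, CLDN4, was higher by 0.97 ± 0.25 (adjusted p = 0.00441, edgeR). Of the 5 blood cell markers 4 were at 0 in WT, and CD68 stood at 56.5 to 69.0 CPM there and 16.7 to 28.8 CPM in KDAC8H143A. Their part in the protocadherin results was not tested.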

How the data were processed

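RNA-seq libraries of 22 HT1080 cultures in 6 groups were analysed from 1 table of 60675 genes. The authors trimmed the reads with Trimmomatic 0.39, aligned them to GRCh38 with Bowtie2 2.4.5 and deposited RSEM 1.3.3 expected counts, which are neither whole nor scaled (versions from the submitters' processing notes). The annotation release is not given in the sources used here. Expected counts were rounded and tested with edgeR 4.0.16 in R 4.3.3 (TMM factors, filterByExpr, quasi-likelihood test), fitting the whole table for 2 groups at a time. Benjamini-Hochberg adjusted p was taken over all genes tested and a gene was called below 0.01. Cluster totals, shares and CPM used TMM factors over all 22 libraries and had no test. Positions, lengths and GC content came from GENCODE release 44. P-values measure the spread between these cultures.

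Values in every library are given for the member with the highest mean in each cluster, the C-type members and, in each comparison with WT, up to 4 called members with the largest rise and 4 with the largest fall. From the lists, SMC3, HDAC8, CTCF, SMCHD1 and the called genes with the largest folds are named. Any other member or list gene given with values was picked with those values in view. The members and gene lists were chosen with earlier results of these data known, and the promoter motifs by reading the promoters. Alternatives were DESeq2 1.42.0, other scalings and filters, a fit of all groups, a replicate block, correction for GC content and length with mgcv 1.9.3, removal of mitochondrial rRNA and small RNA, and leaving out each library. The fits were tested on simulated data. SDs and SEs include the spread between the libraries of a group, whereas the floor of 3 counts covers counting error only.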

Additional observations from a re-analysis of the deposited data

Results flagged for a closer look

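In 11 of 88 groups of 4 libraries tested, over members and cluster totals, 1 library lay further from the other 3 than Dixon's test allows at the 95% level, where chance alone does so in about 1 in 20. The KDAC6H216A library of replicate 1 was high for PCDHA4 (14.6 CPM), PCDHB1 (2.89 CPM) and the alpha total (15.95 CPM), and replicate 2 of KDAC6H611A for PCDHA4 (18.7 CPM) and the alpha total (22.3 CPM), which PCDHA4 makes up for the most part. Replicate 1 of KDAC6H611A was high for PCDHB2 (1.17 CPM) and PCDHGB2 (5.67 CPM). In WT, PCDHB1 was high in replicate 1 (2.08 CPM) and PCDHGA5 in replicate 4 (3.87 CPM). PCDHAC2 in replicate 4 of KDAC6H216A (0.0968 CPM) and PCDHAC1 in replicate 3 of KDAC6H611A (0.136 CPM) were under the floor of 3 counts, with the other 3 libraries at 0.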

How the results depend on the processing

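Low counts limit the alpha and beta clusters, and shared constant exons limit the separation of gamma members. Counts of members called moved as follows. Without a filter 26 of 54 members were called with Tubastatin A and 26 of 54 with PCI-34051, where 30% and 27% of all genes were. With at least 10 counts in every library, 6 of 12 were called with each inhibitor, 8 of 12 in KDAC8H143A and 1 of 11 in KDAC6H611A. Those fits called 7994 of 13037 (Tubastatin A), 7162 of 13033 (PCI-34051), 7693 of 12731 (KDAC8H143A) and 1490 of 12792 genes (KDAC6H611A). Scaling to the total count gave 1 of 22 in KDAC6H611A, where 913 of 14725 genes were called. Leaving out 1 library gave 18 to 20 in KDAC8H143A, 10 to 17 for PCI-34051, 12 to 18 for Tubastatin A, 1 to 4 in KDAC6H611A, 0 to 7 in KDAC6H216A and 16 to 18 between KDAC8H143A and KDAC6H611A. Those fits called 8186 to 10520, 7043 to 7686, 8159 to 8902, 1122 to 2908, 28 to 3813 and 5899 to 8351 of all genes, in that order. Between the KDAC6 lines, with 2 called, an adjusted p below 0.05 gave 4, DESeq2 4, total count scaling 1, at least 10 counts 1, all 6 groups in one fit 6, and leaving out 1 library 0 to 7. Those settings called 3109, 2339, 781, 1137, 3382 and 772 to 3041 of all genes, in that order. Same-numbered libraries did not deviate together in every pair of any comparison, with correlations from -0.2282 to 0.3729, so the numbers are not taken as a pairing. The replicate block gave 1 between the KDAC6 lines, where 930 genes were called, and also 1 with the GC correction, where 827 were. The block moved no other count of calls by over 1.5 times. Scaling to the total count moved the median of all genes to 0.36, 0.35 and 0.38 on the log2 scale in KDAC8H143A, Tubastatin A and PCI-34051. Cluster totals with scaling to the total count were 153.8, 279.2, 223.0 and 271.9 CPM for gamma in WT, KDAC8H143A, Tubastatin A and PCI-34051, and 13.8, 9.32 and 11.8 CPM for alpha in the last 3. Members with at least 10 counts in some library gave alpha totals of 10.5, 8.13 and 9.84 CPM there. Without the C-type members gamma stood at 66.7 CPM in WT, 171.5 in KDAC8H143A, 138.2 for PCI-34051, 123.8 for Tubastatin A, 60.02 in KDAC6H611A and 58.1 in KDAC6H216A. Of 563 alternative log2 fold changes for named members, 496 kept direction and call, 56 lost the call, 2 gained it and 9 reversed. The reversed values all belonged to members not called: PCDHGB4 in KDAC8H143A (-0.33 with the GC correction, -0.37 with the block as well), PCDHA4 in KDAC8H143A (0.22 with total count scaling, and -0.28 to 0.00999 when 1 library was left out), PCDHGC4 with PCI-34051 (0.06 with total count scaling) and PCDHGC3 with PCI-34051 (0.35 with total count scaling, adjusted p = 4.24e-05 by edgeR, 0.0454 without a filter, 0.0614 in the fit of all groups, and -0.0695 to 0.00464 when 1 library was left out). Beyond the smaller sets of samples or genes that some of these use, the cause was not tested.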
